A study of Mus musculus with 48 samples.

Results

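Acyl-CoA thioesterases hydrolyse acyl-CoA to free fatty acid and coenzyme A, and medium-chain acyl-CoA synthetases run the opposite way, joining medium-chain fatty acids to coenzyme A. After 6 days on a cystine-free diet, transcripts of most of these genes were higher in the white fat of mice without cystathionine gamma-lyase than in such mice on a control diet. The genes described are Acot1, Acot2, Acot3, Acot4, Acot11 and Acot13, which encode thioesterases, and Acsm3 and Acsm5, which encode synthetases. They are 8 of the 47729 genes of a count table and were found in it by symbol. They were picked with their response to the cystine-free diet in Cth-/- mice already known, so their values in that comparison, and in the comparison of genotypes on that diet, are given as a description without a test.

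The libraries were made from poly(A) RNA of male mice and cover brown fat (BAT), subcutaneous fat (SFAT) and visceral fat (EFAT). In each depot 4 groups were compared, each with 4 libraries: Cth-/- mice on the cystine-free diet (CysF), Cth-/- mice on the control diet (CTRL), Cth+/+ mice on the cystine-free diet and Cth+/+ mice on the control diet. All mice had their diet for 6 days, and they are called CysF-fed and CTRL-fed from here on. Cth encodes cystathionine gamma-lyase, which makes cysteine from cystathionine, so that the diet and the deletion each remove a source of cysteine. The labels give no age and no account of how the Cth allele was made. They also do not say that the numbered libraries come from separate animals, so a p-value here measures the spread between libraries, which may in part be technical.

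The balance of thioesterases and synthetases sets how much fatty acid is held as acyl-CoA, which is the form that enters beta-oxidation, lipid synthesis and protein acylation. The enzymes work in different compartments: Acot1 in the cytosol, Acot2, Acsm3 and Acsm5 in mitochondria, and Acot3 and Acot4 in peroxisomes. Acot11 (also called Them1) is known from brown fat, where cold induces it, and Acot13 (Them2) is found with mitochondria. The Acot1 to Acot6 genes lie in 1 cluster, and several of them are known targets of the fatty acid receptor PPAR alpha in mouse liver.

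Library totals, in units of 1e6 expected counts, ran from 22.1 to 46.0 in BAT, from 16.2 to 39.0 in SFAT and from 18.7 to 36.1 in EFAT. Cth had 0 to 6 reads in the 24 Cth-/- libraries and 8 to 389 reads in the 24 Cth+/+ libraries. Ucp1, Cidea, Elovl3 and Dio2, which mark brown adipocytes, summed to 3800 to 12162 CPM (counts scaled to library size) in BAT libraries, and Adipoq, Plin1, Fabp4, Cidec and Lipe, which mark adipocytes, summed to 7611 CPM or more in every library of the 3 depots. Mitochondrially encoded transcripts took 31.3% of the reads of replicate 20 of the SFAT libraries of CysF-fed Cth-/- mice, against 10.6 to 11.5% in the other 3 of that group. In EFAT of CysF-fed Cth-/- mice they took 14.7 and 14.4% in replicates 17 and 20, against 4.82 and 6.70% in replicates 16 and 18. In BAT libraries their share ran from 21.8 to 45.7%. In bulk tissue, fewer cells of a type and less RNA per cell cannot be told apart.

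Across the diet comparison in Cth-/- mice, all members tested had positive fitted differences in each depot. Of the 8 members, 7 passed the filter on low counts in BAT, where Acot3 did not, and 8 passed it in SFAT and in EFAT. Acot3 passed there only through the CysF-fed Cth-/- mice. At an adjusted p under 0.05 from the edgeR quasi-likelihood test, 2 of the 7 members were past the threshold in BAT, where 18.0% of 14528 genes were. In SFAT 8 of 8 members were past it, where 25.4% of 16555 genes were, and in EFAT 6 of 8, where 28.8% of 17248 genes were. The members were picked on this comparison, so nothing is read from these counts. The median log2 fold change over the members, CysF over CTRL, without Acot3, whose fitted values rest on few reads, was 0.47 in BAT against -0.01 over all genes tested, 1.85 in SFAT against 0.03 and 1.51 in EFAT against 0.07.

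**Figure D1:**
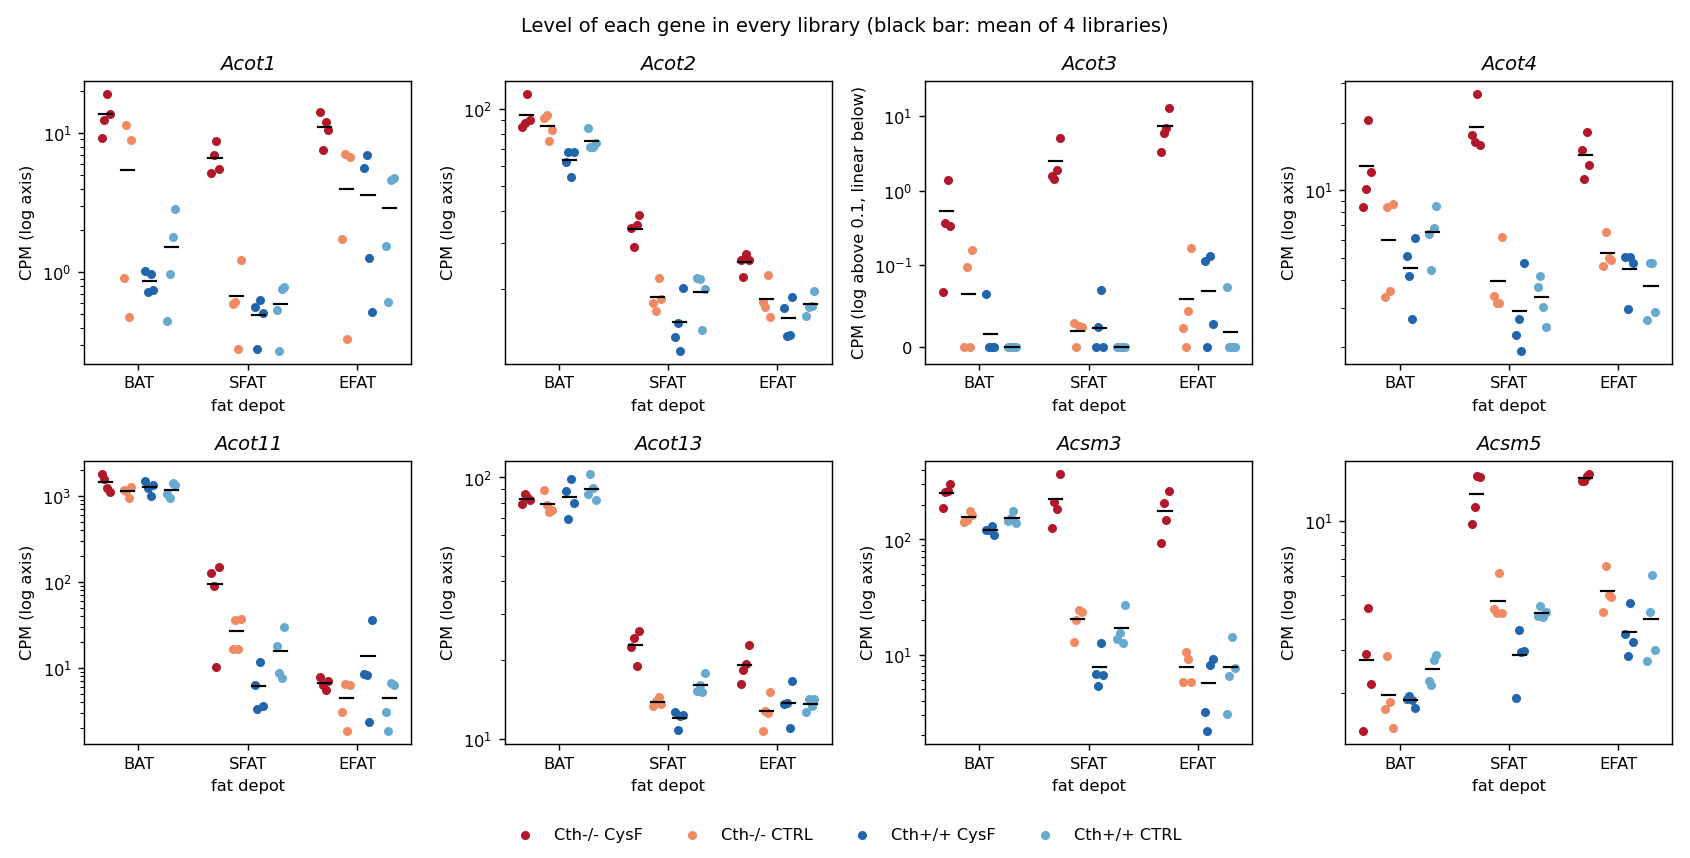
Level of each of the 8 genes in every library, in CPM on a log axis (for Acot3 the axis is linear below 0.1 CPM), for BAT, SFAT and EFAT; within a depot the groups run from Cth-/- CysF and Cth-/- CTRL to Cth+/+ CysF and Cth+/+ CTRL, and the black bar is the mean of 4 libraries. Acsm3 in SFAT had 127 to 369 CPM in CysF-fed Cth-/- mice, above the 12 other SFAT libraries, and Acot11 had 937 to 1790 CPM in the BAT libraries of the 4 groups.

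Acsm3, a mitochondrial synthetase of medium-chain acyl-CoA, showed the widest separation in the white depots among the members with reads in every library. In SFAT it had 127, 211, 185 and 369 CPM in CysF-fed Cth-/- mice, against 12.9, 20.1, 24.5 and 23.5 CPM in CTRL-fed Cth-/- mice. In EFAT it had 93.3, 207, 148 and 261 CPM in CysF-fed Cth-/- mice, against 5.79, 10.5, 9.23 and 5.82 CPM in CTRL-fed Cth-/- mice. The groups did not overlap in either depot, and every Cth-/- library on the cystine-free diet lay above every Cth+/+ library of its depot. The fitted log2 fold change was 3.48 ± 0.37 (SE) in SFAT and 4.57 ± 0.55 in EFAT. In BAT, where Acsm3 was already abundant, it had 187, 257, 265 and 303 CPM in CysF-fed Cth-/- mice, against 143, 148, 175 and 162 CPM in CTRL-fed Cth-/- mice, again without overlap and with a log2 fold change of 0.70 ± 0.14. On the cystine-free diet the mean Acsm3 level was thus 253 ± 48.6 CPM in BAT of Cth-/- mice, with 223 ± 103 CPM in their SFAT and 177 ± 72.5 CPM in their EFAT (SD, n = 4 each), and the ranges of the 3 depots overlapped.

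Cth+/+ mice gave another picture for Acsm3. In SFAT it had 6.80, 5.32, 12.6 and 6.74 CPM on the cystine-free diet and 13.6, 15.3, 12.7 and 27.0 CPM on the control diet. Here every cystine-free library lay below every control library. In EFAT the values were 3.17, 2.18, 8.21 and 9.23 CPM on the cystine-free diet and 3.09, 6.56, 14.3 and 7.65 CPM on the control diet, which overlapped.

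Acsm3 lies on mouse chromosome 7 (GRCm38, chr7:119760923-119787513, plus strand), and 1962 of its 4936 exon bases overlap exons of Eri2 on the opposite strand. Whether the counting used strand is not given in the sources used here, so reads of the overlap cannot be told apart. Eri2 averaged 11.3 ± 1.56 CPM in SFAT of CysF-fed Cth-/- mice and 9.21 ± 0.76 CPM in CTRL-fed Cth-/- mice (SD, n = 4 each), with a log2 fold change of 0.30 ± 0.13. The Acsm3 level in the cystine-free group was 127 CPM or more, above the 9.87 to 12.9 CPM of Eri2 in the same libraries. In Cth+/+ mice the genes were closer. In SFAT of CysF-fed Cth+/+ mice Acsm3 had 5.32 to 12.6 CPM where Eri2 had 8.20 to 9.44 CPM, and in their EFAT Acsm3 had 2.18 to 9.23 CPM where Eri2 had 6.64 to 9.61 CPM. The part of Eri2 reads in these Acsm3 values was not tested.

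Acsm5, a neighbour of Acsm3 on the same chromosome (chr7:119519463-119545551, plus strand), encodes another mitochondrial medium-chain synthetase. The aligned coding sequences of the pair are 63.3% identical over 1720 bases, and they share no stretch of 50 bases. Acsm5 had 9.68, 11.4, 15.2 and 15.1 CPM in SFAT of CysF-fed Cth-/- mice, against 4.38, 4.21, 6.12 and 4.22 CPM in CTRL-fed Cth-/- mice. In EFAT it had 14.5, 14.5, 15.2 and 15.5 CPM in CysF-fed Cth-/- mice, against 4.26, 6.56, 4.98 and 4.91 CPM in CTRL-fed Cth-/- mice. The groups did not overlap in either white depot, and the log2 fold changes were 1.45 ± 0.20 in SFAT and 1.59 ± 0.23 in EFAT. In BAT Acsm5 had 1.40, 2.89, 4.43 and 2.17 CPM in CysF-fed Cth-/- mice, against 1.72, 2.82, 1.83 and 1.44 CPM in CTRL-fed Cth-/- mice, and there the groups overlapped, with a log2 fold change of 0.47 ± 0.30. Over the 48 libraries, after subtraction of the depot mean, Acsm3 and Acsm5 had a Pearson r of 0.91 in log2 CPM, at the top of the range of 0.37 to 0.91 over all pairs of members. The libraries share the group differences, so this r describes the same separation again.

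The promoters of the synthetase pair are shown because they moved together in white fat. The sequences are those of RefSeq for GRCm38.p6, from 250 bases before the transcript start to 50 after it, both on the plus strand: Acsm3 at chr7:119760673-119760972 and Acsm5 at chr7:119526015-119526314. Capitals mark matches to the motifs searched on either strand. Searched were AGGTCA, the core of many nuclear receptor sites, and that core repeated 1 base apart, also in the looser form AGGNCA. The longer TCAAGGTCA contains the core. The others were the E-box CACGTG, the cyclic AMP response element TGACGTCA, a steroid receptor site made of GNACA and, after 3 bases, the letters TGTNC, and the TATA box, searched as TATAAA.
Acsm3: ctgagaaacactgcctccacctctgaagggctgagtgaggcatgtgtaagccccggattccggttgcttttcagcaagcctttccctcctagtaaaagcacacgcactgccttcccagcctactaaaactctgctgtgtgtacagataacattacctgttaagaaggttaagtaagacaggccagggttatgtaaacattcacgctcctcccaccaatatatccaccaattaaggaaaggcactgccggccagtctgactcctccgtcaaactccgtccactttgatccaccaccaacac
Acsm5: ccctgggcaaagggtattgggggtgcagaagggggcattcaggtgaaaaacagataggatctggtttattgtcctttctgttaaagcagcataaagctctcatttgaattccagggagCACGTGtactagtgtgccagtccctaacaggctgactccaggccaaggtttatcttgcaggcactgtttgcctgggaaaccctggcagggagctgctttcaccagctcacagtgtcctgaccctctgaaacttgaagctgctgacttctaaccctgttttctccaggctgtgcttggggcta
The Acsm5 window held CACGTG 132 bases before the start, a motif found in 7.15% of 32851 promoter windows of that table. This RefSeq start lies inside Acsm5 as GENCODE places the gene, from chr7:119519463, and no window at the GENCODE start was searched. The Acsm3 window held none of the motifs.

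Acot3 and Acot4, the peroxisomal thioesterases, differed in how far the transcript was present at all. Acot3 had no read in the BAT and SFAT libraries of CTRL-fed Cth+/+ mice, where 3 reads over the 4 libraries, the limit that a count of 0 allows, would be 0.0449 CPM in BAT and 0.0253 CPM in SFAT. In EFAT it had 3.30, 5.94, 7.08 and 13.0 CPM in CysF-fed Cth-/- mice, against 0.0238, 0, 0.0434 and 0.166 CPM in CTRL-fed Cth-/- mice. In SFAT it had 1.58, 1.42, 1.89 and 5.09 CPM in CysF-fed Cth-/- mice, against 0.0292, 0, 0.0257 and 0.0240 CPM in CTRL-fed Cth-/- mice. In both white depots every cystine-free library of Cth-/- mice lay above all other libraries of the depot. The reads summed over 4 libraries were 914 against 10 in EFAT, a depth-corrected ratio of 122 (95% interval 66.1 to 256, counting error only), and 261 against 3 in SFAT, a ratio of 126 (42.7 to 616). In BAT Acot3 was rarer, with 0.0675, 0.366, 1.37 and 0.329 CPM in CysF-fed Cth-/- mice, against 0, 0.0968, 0 and 0.159 CPM in CTRL-fed Cth-/- mice. These are 37 reads against 6, a ratio of 5.85 (2.45 to 17.0), and the groups overlapped.

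Acot4, which hydrolyses succinyl-CoA in peroxisomes, was present in every library. It had 17.6, 16.4, 26.9 and 16.0 CPM in SFAT of CysF-fed Cth-/- mice, against 3.38, 3.14, 3.15 and 6.17 CPM in CTRL-fed Cth-/- mice. In EFAT it had 15.1, 11.2, 18.2 and 13.0 CPM in CysF-fed Cth-/- mice, against 4.62, 6.54, 5.02 and 4.88 CPM in CTRL-fed Cth-/- mice. The groups did not overlap in either white depot, with log2 fold changes of 2.29 ± 0.30 in SFAT and 1.51 ± 0.23 in EFAT. BAT values were 8.42, 10.1, 20.6 and 12.1 CPM in CysF-fed Cth-/- mice, against 3.36, 8.40, 3.57 and 8.66 CPM in CTRL-fed Cth-/- mice. There the groups overlapped, with replicate 15 of the control group above the lowest cystine-free library, and the log2 fold change was 1.09 ± 0.34.

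Both genes lie in the thioesterase cluster of chromosome 12, Acot4 at chr12:84038379-84048601 and Acot3 at chr12:84052144-84060402, both on the plus strand. Their exons overlap those of the transcript 4732463B04Rik on the opposite strand, by 615 of 6674 bases in Acot4 and 312 of 3438 bases in Acot3. 4732463B04Rik averaged 0.814 ± 0.230 CPM in EFAT of CysF-fed Cth-/- mice and 0.0360 ± 0.0416 CPM in CTRL-fed Cth-/- mice (SD, n = 4 each), so it moved with both genes at a lower level. Acot3 also shares 396 exon bases on its own strand with Gm49366, which has no value of its own in the table, and the 2 cannot be told apart there. The promoters of the pair are shown because their transcripts separated together in white fat, with sequence source, window and motifs as above, at chr12:84051894-84052193 for Acot3 and at chr12:84038129-84038428 for Acot4, both on the plus strand.
Acot3: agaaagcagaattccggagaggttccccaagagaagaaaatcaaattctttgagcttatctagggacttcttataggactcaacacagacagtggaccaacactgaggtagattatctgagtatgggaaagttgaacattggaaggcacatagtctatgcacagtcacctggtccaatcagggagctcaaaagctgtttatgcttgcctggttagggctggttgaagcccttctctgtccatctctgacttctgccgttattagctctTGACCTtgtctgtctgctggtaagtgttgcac
Acot4: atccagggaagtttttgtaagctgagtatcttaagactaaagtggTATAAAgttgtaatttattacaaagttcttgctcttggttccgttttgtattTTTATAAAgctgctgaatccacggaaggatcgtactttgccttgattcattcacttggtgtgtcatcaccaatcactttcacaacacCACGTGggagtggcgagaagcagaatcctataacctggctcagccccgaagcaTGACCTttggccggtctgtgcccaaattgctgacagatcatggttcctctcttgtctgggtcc
AGGTCA, on the other strand as TGACCT, stood 18 bases after the start in Acot3 and 13 bases before it in Acot4, and 16.3% of promoter windows of this length hold it. Acot4 also had CACGTG 66 bases before the start and TATAAA 205 and 151 bases before it, the nearer of which overlaps TTTATA, its other-strand form, at 153 bases. TATAAA occurs in 13.6% of windows. Of the other promoters, a CACGTG lay 154 bases before another Acot11 start, and those of Acot1 and Acot2 held none of the motifs. Pairs of AGGTCA sites 1 base apart, the textbook form of a PPAR site, are in 0.0396% of windows and in none of the members' windows, and the looser AGGNCA form is in 0.381%.

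Acot1 and Acot2 are the cytosolic and the mitochondrial long-chain thioesterase of the cluster. They lie near each other on the plus strand, Acot2 at chr12:83987861-83993873 and Acot1 at chr12:84009490-84018371. Their coding sequences are 95.3% identical over 1236 aligned bases, and the encoded proteins, of 419 residues for Acot1 and 453 for Acot2, are 93.4% identical over 412 aligned residues. The stretch below shows some of the letters that separate them, with 90 bases of GENCODE M21 coding sequence of each gene, from coding base 1 of Acot1 and coding base 124 of Acot2, on the plus strand of chromosome 12. Capitals mark the 11 bases at which they differ, a larger share than over the whole alignment.
Acot1: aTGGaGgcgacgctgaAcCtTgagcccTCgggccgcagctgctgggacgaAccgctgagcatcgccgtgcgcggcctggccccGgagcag
Acot2: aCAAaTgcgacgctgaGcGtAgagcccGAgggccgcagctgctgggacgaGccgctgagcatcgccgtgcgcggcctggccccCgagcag
Of the stretches of 50 bases in Acot1 transcripts, 33.6% also occur in another gene, and 23.7% in Acot2. RSEM, which the authors used, divides reads that fit several genes, and the expected counts were not whole in 47 of 48 libraries for Acot1, in 48 of 48 for Acot2, in the 27 libraries with Acot3 reads and in 43 of 48 for Acot4. They were whole in every library for Acot11, Acot13, Acsm3 and Acsm5. The division between Acot1 and Acot2 is therefore an estimate.

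Acot1 had 5.14, 6.97, 8.70 and 5.56 CPM in SFAT of CysF-fed Cth-/- mice, against 0.593, 0.617, 0.284 and 1.22 CPM in CTRL-fed Cth-/- mice. The groups did not overlap, the log2 fold change was 3.28 ± 0.40, and the 8 Cth+/+ libraries lay between 0.274 and 0.791 CPM. Acot2 was the more abundant of the pair and moved less, with 34.3, 29.0, 35.2 and 38.5 CPM in SFAT of CysF-fed Cth-/- mice, against 17.6, 16.4, 22.1 and 18.3 CPM in CTRL-fed Cth-/- mice. This was a log2 fold change of 0.89 ± 0.18, also without overlap. Acot1 made up 12.6 to 19.8% of the summed expected counts of the pair in SFAT of CysF-fed Cth-/- mice, against 1.27 to 6.24% in CTRL-fed Cth-/- mice. Summed over Acot1 to Acot6, which removes the division of reads among them, the log2 fold change was 1.37 in SFAT, 1.05 in EFAT and 0.32 in BAT.

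In EFAT and BAT, Acot1 varied widely within the control group. In EFAT it had 14.1, 7.60, 12.1 and 10.5 CPM in CysF-fed Cth-/- mice, against 1.75, 7.03, 0.334 and 6.69 CPM in CTRL-fed Cth-/- mice. The cystine-free libraries were all higher, but replicates 13 and 15 of the control group came close to them, and the log2 fold change was 1.54 ± 0.86. In BAT it had 9.14, 12.4, 19.1 and 13.8 CPM in CysF-fed Cth-/- mice, against 0.909, 11.5, 0.479 and 8.98 CPM in CTRL-fed Cth-/- mice. Here replicate 13 of the control group lay within the range of the cystine-free group and replicate 15 just below it, and the log2 fold change was 1.30 ± 0.63. Acot2 in EFAT had 25.9, 22.3, 27.4 and 25.9 CPM in CysF-fed Cth-/- mice, against 17.7, 17.0, 22.7 and 15.5 CPM in CTRL-fed Cth-/- mice, a log2 fold change of 0.54 ± 0.13, with replicate 14 of the control group inside the range of the other. In BAT Acot2 averaged 94.2 ± 13.3 CPM in CysF-fed Cth-/- mice and 85.9 ± 9.03 CPM in CTRL-fed Cth-/- mice (SD, n = 4 each), which overlapped.

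The Acot1 level in EFAT followed markers of epithelium, which the epididymis next to this fat contains. Epcam, Krt8, Krt18 and Cdh1 summed to 150, 80.2, 97.3 and 135 CPM in CysF-fed Cth-/- mice, against 27.6, 102, 6.23 and 134 CPM in CTRL-fed Cth-/- mice, and none was at 0 throughout a group. Replicates 13 and 15, high in Acot1, were high in these markers, and replicates 12 and 14 were low in both. In Cth+/+ mice the sums were 120, 132, 16.8 and 3.34 CPM on the cystine-free diet and 46.9, 6.48, 98.6 and 121 CPM on the control diet, with Acot1 at 5.64, 7.01, 1.27 and 0.520 CPM and at 1.54, 0.615, 4.57 and 4.79 CPM in the same libraries. Umod, Slc34a1, Lrp2 and Kap, listed as kidney tubule markers, followed the same libraries, with a sum of 3.47 to 209 CPM. The part of these cells in the EFAT values of Acot1 was not tested. In BAT, where Acot1 showed a like split, the epithelial sum was 0.733 CPM or less in every library and Epcam was at 0 in all, and in SFAT replicates 17 and 18 of CysF-fed Cth-/- mice had 6.97 and 8.70 CPM of Acot1 at epithelial sums of 0.792 and 1.17 CPM.

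**Figure D2:**
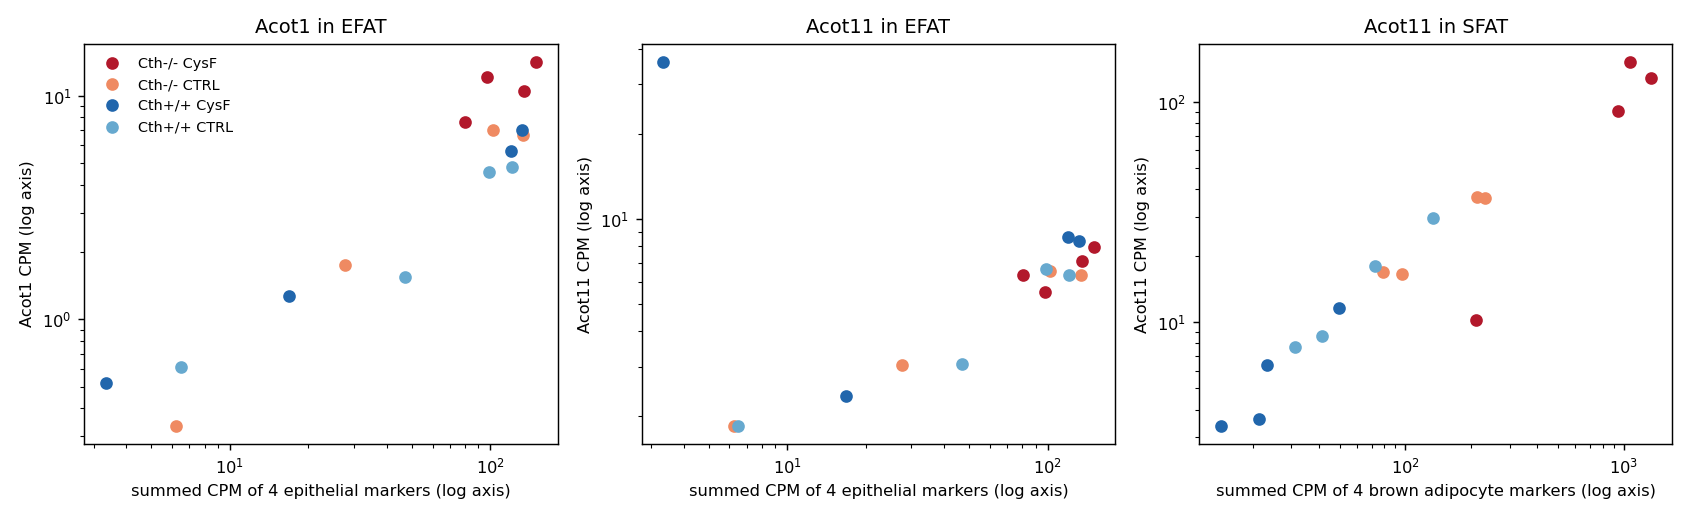
Member levels against marker levels in single libraries, both as CPM on log axes, coloured by genotype and diet: Acot1 and Acot11 in EFAT against the summed CPM of 4 epithelial markers, and Acot11 in SFAT against the summed CPM of 4 brown adipocyte markers, with 16 libraries in each plot. Acot11 in EFAT stood apart at 35.9 CPM in 1 Cth+/+ library on the cystine-free diet with an epithelial sum of 3.34 CPM, and in SFAT its 3 highest values were in the 3 libraries with a brown adipocyte sum of 941 CPM or more.

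Acot11, the thioesterase known from brown fat, was far more abundant in BAT than in the white depots in every group. It lies on chromosome 4 (chr4:106744555-106804998, minus strand). In SFAT it had 128, 90.6, 10.2 and 151 CPM in CysF-fed Cth-/- mice, against 16.5, 36.4, 16.8 and 37.0 CPM in CTRL-fed Cth-/- mice. Replicates 16, 17 and 20 were high and replicate 18 was below the whole control group, so the groups overlapped. The log2 fold change was 1.85 ± 0.64. The brown adipocyte markers had a like pattern: Ucp1, Cidea, Elovl3 and Dio2 summed to 1333, 941, 210 and 1070 CPM in these Cth-/- libraries on the cystine-free diet, against 96.3, 231, 79.1 and 212 CPM in CTRL-fed Cth-/- mice. In the diet comparison of Cth-/- mice 4 of 4 of these markers passed the edgeR test as higher in SFAT, 1 of 4 in BAT and 0 of 3 in EFAT. The part of brown-like adipocytes in the SFAT values of Acot11 was not tested.

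In BAT, Acot11 had 1790, 1589, 1238 and 1121 CPM in CysF-fed Cth-/- mice, against 1170, 1141, 949 and 1280 CPM in CTRL-fed Cth-/- mice. The groups overlapped, and the log2 fold change was 0.34 ± 0.16, while the brown adipocyte sum had a median of 10157 CPM in CysF-fed Cth-/- mice and 5105 CPM in CTRL-fed Cth-/- mice. In EFAT Acot11 had 7.93, 6.34, 5.52 and 7.10 CPM in CysF-fed Cth-/- mice, against 3.04, 6.54, 1.85 and 6.35 CPM in CTRL-fed Cth-/- mice, a log2 fold change of 0.65 ± 0.64. These EFAT values followed the epithelial markers named above, with 1 exception among CysF-fed Cth+/+ mice. Replicate 11 of that group had 35.9 CPM of Acot11 and a brown adipocyte sum of 211 CPM, against 1.44 to 13.1 CPM in the other 15 EFAT libraries. Exons of Acot11 overlap those of Fam151a on the opposite strand by 1263 of 6056 bases, and Fam151a averaged 1.60 ± 0.608 CPM in BAT of CysF-fed Cth-/- mice and 1.58 ± 0.471 CPM in CTRL-fed Cth-/- mice (SD, n = 4 each).

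Acot13, a thioesterase that acts with a phosphatidylcholine transfer protein, was among the members with the smaller differences. It lies on chromosome 13 (chr13:24817948-24831540, minus strand). In SFAT it had 22.4, 24.2, 19.0 and 25.8 CPM in CysF-fed Cth-/- mice, against 13.3, 13.9, 14.5 and 13.6 CPM in CTRL-fed Cth-/- mice. In EFAT the values were 16.2, 18.3, 19.4 and 22.8 CPM in CysF-fed Cth-/- mice, against 10.7, 12.8, 12.5 and 15.1 CPM in CTRL-fed Cth-/- mice. The groups did not overlap in either white depot, and Acot13 was higher by 0.74 ± 0.10 (log2) in SFAT and by 0.65 ± 0.14 in EFAT. Its BAT level averaged 83.0 ± 3.24 CPM in CysF-fed Cth-/- mice and 79.3 ± 7.22 CPM in CTRL-fed Cth-/- mice (SD, n = 4 each), which overlapped.

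**Figure D3:**
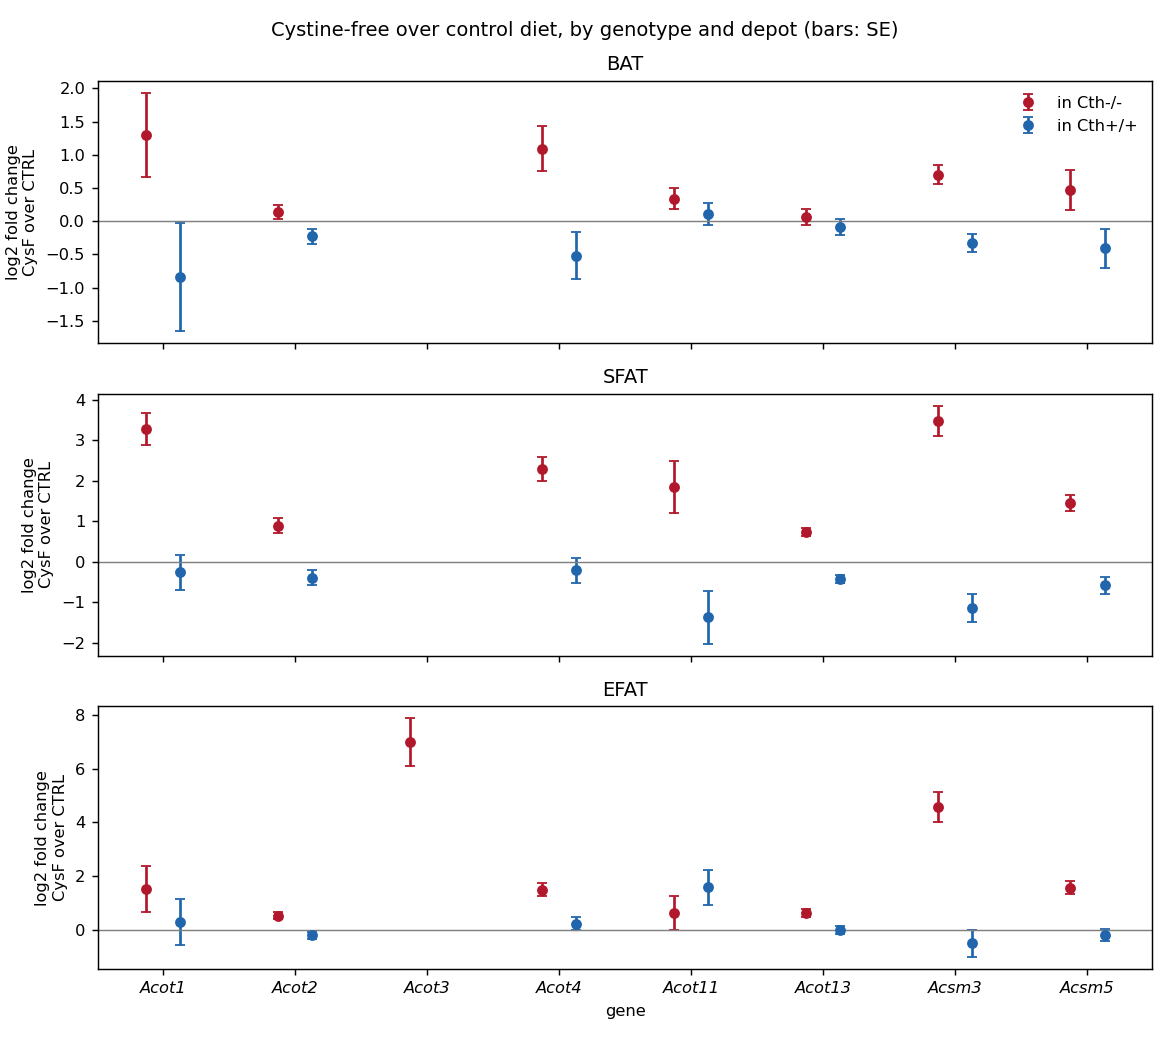
Log2 fold change of the cystine-free over the control diet for each gene in Cth-/- mice (red, left of each pair) and in Cth+/+ mice (blue), with bars of 1 SE, in BAT, SFAT and EFAT. Acot3 is drawn only in EFAT of Cth-/- mice, where it had the most reads. Its fit in SFAT of Cth-/- mice, 6.90 ± 0.74 from 261 reads against 3, is not drawn. In SFAT all 7 other members lie above 0 in Cth-/- mice and below 0 in Cth+/+ mice, where none passed the edgeR test.

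The 16 libraries of a depot also fell into a pair of sets by reads of the pseudogene Gm43512, at or above 0.1 CPM in 7 libraries and below it in 9, which no label explains. Within each set, the Acsm3 log2 ratio of mean CPM in Cth-/- mice, CysF over CTRL, was 3.00 and 4.30 in SFAT and 3.45 and 5.14 in EFAT. Acot4 had within-set ratios of 2.12 and 2.30 in SFAT, and Acsm5 of 1.52 and 1.52. Other ratios differed between the sets. Acot1 in BAT had 0.41 in the set without these reads and 4.31 in the set with them, and both low control libraries belong to the set with them. In the same order, Acot4 in BAT had 0.62 and 1.81, and its low control libraries, replicates 12 and 14, are the same as for Acot1. Acot11 in SFAT had 1.06 and 3.18, and Acot1 in EFAT had 2.22 and 0.59. Each arm of a set held only 1 to 3 libraries. In BAT the sets also differed in the share of mitochondrially encoded reads, 28.6 to 45.7% with Gm43512 reads and 21.8 to 27.9% without. Replicates 12 and 14 of the CTRL-fed Cth-/- mice had 45.7 and 35.6% there. The part of this difference in the members' values was not tested.

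On the cystine-free diet, Cth-/- and Cth+/+ mice were separated in much the same way, and this comparison shares its Cth-/- libraries with the one above. It counted 4 of 7 members past the threshold in BAT, where 31.6% of genes were, 8 of 8 in SFAT, where 37.5% were, and 6 of 8 in EFAT, where 39.7% were, and again nothing is read from these counts. Acsm3 had a log2 fold change, Cth-/- over Cth+/+, of 4.86 ± 0.40 in SFAT, 5.02 ± 0.56 in EFAT and 1.09 ± 0.14 in BAT. Acot1 in BAT had 9.14 to 19.1 CPM in Cth-/- mice and 0.725 to 1.03 CPM in Cth+/+ mice, a log2 fold change of 3.99 ± 0.77. For Acot4 it was 2.74 ± 0.30 in SFAT, 1.75 ± 0.24 in EFAT and 1.51 ± 0.35 in BAT. Acot11 ran the other way in EFAT, at -0.97 ± 0.64, with the 35.9 CPM library named above in the Cth+/+ group.

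The diet in Cth+/+ mice was tested with libraries that are not in the comparison the members were picked on. The estimate of spread and the filter on low counts came from all 16 libraries of a depot, so the test is not fully separate. Acot3 had too few reads in these mice to be counted. Of the 7 other members none passed: 0 in BAT, where 0.0826% of genes did, 0 in SFAT, where 0.0664% did, and 0 in EFAT, where 0% did (edgeR quasi-likelihood test with Benjamini-Hochberg adjustment over all genes). At an unadjusted p under 0.05 there were 2 members in BAT, where 9.80% of all genes were, 4 in SFAT, where 14.0% were, and 1 in EFAT, where 3.93% were. DESeq2 called 0 members in BAT, where it called 1.12% of genes, 2 in SFAT, where it called 3.00%, and 0 in EFAT, where it called 0.124%. In SFAT all 7 members other than Acot3 had lower fitted values on the cystine-free diet. Their median log2 fold change was -0.44, against -0.02 over all genes tested. Acot13 there had 12.6, 10.8, 12.2 and 12.3 CPM on the cystine-free diet, against 15.2, 16.0, 15.1 and 17.8 CPM on the control diet, without overlap, at a log2 fold change of -0.44 ± 0.10 (edgeR adjusted p = 0.082). DESeq2 gave it an adjusted p of 0.014, and the range over the alternatives tried was 0.014 to 0.23. Acsm3 in SFAT had a log2 fold change of -1.15 ± 0.35 with all 4 cystine-free libraries below the control libraries (edgeR adjusted p = 0.18, range 0.043 to 0.4, with DESeq2 at 0.043). Acsm5 had 1.90, 3.59, 2.92 and 2.96 CPM on the cystine-free diet, against 4.10, 4.53, 4.08 and 4.26 CPM on the control diet, a log2 fold change of -0.59 ± 0.20 (edgeR adjusted p = 0.22). Of Acot3, Cth+/+ mice had 1 read on the cystine-free diet against 0 on the control diet in BAT, 3 against 0 in SFAT and 8 against 2 in EFAT, a ratio of 3.82 in EFAT with an interval of 0.762 to 36.9.

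The genotype on the control diet was tested as well, in a comparison that shares the Cth-/- control libraries with the one the members were picked on. Of the 7 members other than Acot3, none passed the edgeR test: 0 in BAT, where 2.10% of genes did, 0 in SFAT, where 0.103% did, and 0 in EFAT, where 0.0464% did. At an unadjusted p under 0.05 there was 1 member in BAT, where 18.3% of all genes were, 1 in SFAT, where 11.0% were, and 0 in EFAT, where 6.20% were. DESeq2 called 0 members in each depot, with shares of all genes called of 5.45% (BAT), 0.649% (SFAT) and 0.303% (EFAT). The BAT gene was Acot1, with 0.909, 11.5, 0.479 and 8.98 CPM in Cth-/- mice, against 0.447, 0.972, 1.81 and 2.84 CPM in Cth+/+ mice. The groups overlapped, since the lowest values of both stood below 1 CPM, and the log2 fold change was 1.85 ± 0.70 (edgeR adjusted p = 0.18). The SFAT gene was Acot13, at -0.23 ± 0.10 (edgeR adjusted p = 0.43). Acot3 had 6 reads in Cth-/- mice against 0 in Cth+/+ mice in BAT, and these 6 reads were all in replicates 13 and 15. With 3 reads over the group standing for 0, the ratio was 1.77. The lower limit of its exact binomial interval, which covers counting error only, was 1.04. Acot3 had 3 reads against 0 in SFAT and 10 against 2 in EFAT.

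**Figure D4:**
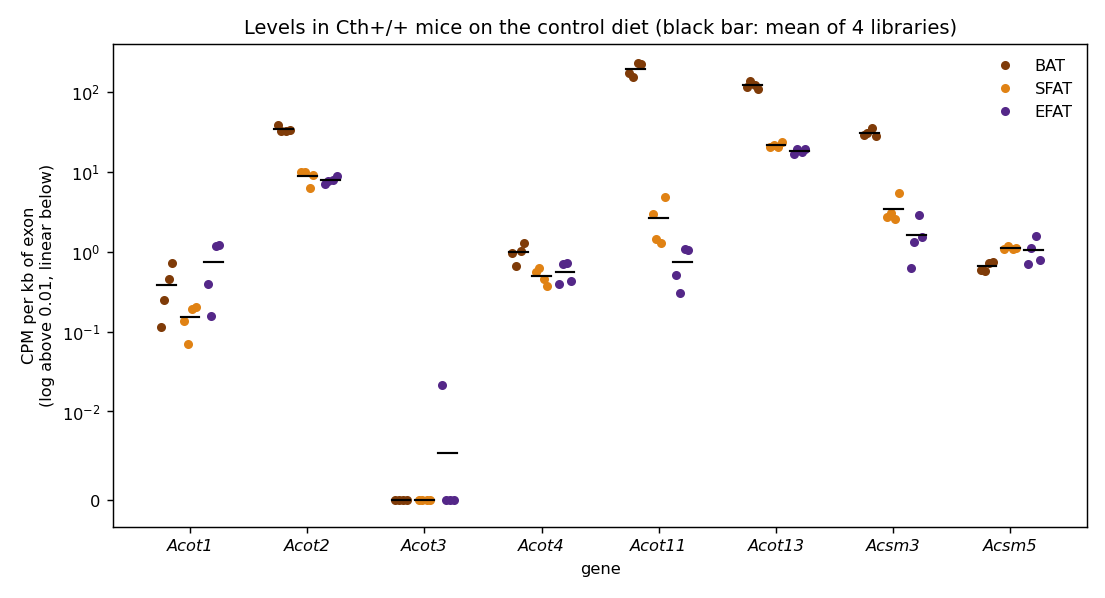
Level of each gene in the 4 libraries of CTRL-fed Cth+/+ mice in BAT, SFAT and EFAT, as CPM per kilobase of exon on a log axis that is linear below 0.01, with a black bar at the mean. Acot11 spanned the widest range among depots, from 195 in BAT to 0.738 in EFAT, and Acot3 was at 0 in 11 of the 12 libraries.

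In CTRL-fed Cth+/+ mice, most members differed between BAT and the white depots. Per kilobase of exon, Acot11 was the most abundant member in BAT with 195 ± 36.9 CPM, followed by Acot13 with 122 ± 12.0, Acot2 with 34.1 ± 2.80 and Acsm3 with 31.0 ± 3.16 CPM (SD, n = 4 each), and of these only Acot2 and Acsm3 were close enough for their ranges to meet. Acot4 at 0.982 ± 0.255, Acsm5 at 0.656 ± 0.0921 and Acot1 at 0.387 ± 0.267 CPM per kilobase stood far below, and their ranges met. In the white depots the order began with Acot13, at 21.5 ± 1.68 CPM per kilobase in SFAT and 18.2 ± 1.04 in EFAT, and Acot2, at 8.81 ± 1.75 in SFAT and 7.93 ± 0.775 in EFAT. Acot11 there had 2.64 ± 1.68 CPM per kilobase in SFAT and 0.738 ± 0.394 in EFAT.

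Acot3, with reads in 1 of these 12 libraries, is left out of the counts that follow. Of BAT over SFAT, 6 of the 7 other members passed the edgeR test, 5 higher and 1 lower, where 53.0% of 18348 genes did. Acot11 rose most, with 1051, 937, 1395 and 1348 CPM in BAT, against 17.9, 8.64, 7.72 and 29.6 CPM in SFAT, a log2 fold change of 6.21 ± 0.68 (edgeR adjusted p = 4.7e-10). Acsm3 followed with 144, 153, 175 and 140 CPM in BAT, against 13.6, 15.3, 12.7 and 27.0 CPM in SFAT, at 3.15 ± 0.39 (edgeR adjusted p = 7.6e-09). Acot13 was higher in BAT by 2.50 ± 0.12 on the log2 scale (edgeR adjusted p = 7.1e-20), Acot2 by 1.95 ± 0.15 (5.3e-14) and Acot4 by 0.98 ± 0.32 (0.0099). None of these 5 overlapped between the depots, and the share of all genes without overlap between depots was not counted. Acsm5 was lower in BAT, with 2.24, 2.15, 2.73 and 2.86 CPM, against 4.10, 4.53, 4.08 and 4.26 CPM in SFAT, at -0.76 ± 0.25 (edgeR adjusted p = 0.0096). Acot1 at 1.40 ± 0.82 did not pass (edgeR adjusted p = 0.15).

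Of BAT over EFAT, again 6 of 7 members passed, 5 higher and 1 lower, where 60.0% of genes did. Acot11 had 3.06, 1.85, 6.64 and 6.34 CPM in EFAT and the BAT values above, a log2 fold change of 8.04 ± 0.74 (edgeR adjusted p = 5.1e-12). Acsm3 was higher in BAT by 4.27 ± 0.41 (1.6e-11), Acot13 by 2.74 ± 0.12 (6.8e-21) and Acot2 by 2.11 ± 0.15 (5.2e-15), each with edgeR adjusted p in parentheses and no overlap. Acot4 rose by 0.81 ± 0.32 (edgeR adjusted p = 0.027) and the depots overlapped. That call was lost without BAT replicate 4, EFAT replicate 1 or EFAT replicate 4, at log2 fold changes of 0.66, 0.68 and 0.71, and with no filter on low counts (0.78, edgeR adjusted p = 0.053). Acsm5 was lower in BAT at -0.68 ± 0.25 (edgeR adjusted p = 0.018), a call lost without BAT replicate 2 (-0.62) or EFAT replicate 3 (-0.41).

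Of SFAT over EFAT, 3 of 7 members passed, where 15.2% of genes did, and each of these calls was lost when some single libraries were left out. Acot11 was higher in SFAT at 1.82 ± 0.59 (edgeR adjusted p = 0.028), and the call was lost without EFAT replicate 1 (1.68) or 2 (1.57), or SFAT replicate 1 (1.76) or 4 (1.34). Acsm3 was higher in SFAT at 1.11 ± 0.37 (edgeR adjusted p = 0.037), lost without EFAT replicate 1 (0.85), 2 (1.03) or 4 (1.10), or SFAT replicate 4 (0.81), with only the 2 groups fitted (1.14) and with no filter on low counts (1.10). Acot1 was lower in SFAT at -2.30 ± 0.79 (edgeR adjusted p = 0.042), lost without EFAT replicate 3 (-1.98) or 4 (-1.94), or SFAT replicate 1 (-2.26), 2 (-2.03), 3 (-2.46) or 4 (-2.48), and with no filter on low counts (-2.32). Its EFAT values are those that followed the epithelial markers, and Acot11 in SFAT those that followed the brown adipocyte markers. The remaining members, Acot2, Acot4, Acot13 and Acsm5, had log2 fold changes of 0.15, -0.16, 0.24 and 0.08.

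Other genes of acyl-CoA metabolism were counted in the diet comparison of Cth-/- mice, where 18.0% of all genes passed in BAT, 25.4% in SFAT and 28.8% in EFAT, at medians over all genes of -0.01, 0.03 and 0.07 (log2). The lists were chosen with earlier results of these data known. Genes past the test were named from those with the largest changes, and not all of these are given. Adjusted p-values here and in the next paragraphs on these lists are therefore a description and no independent support. Of 14 other thioesterase genes, 1 of 8 tested rose in BAT and none fell, 2 of 9 rose in SFAT and none fell, and 1 rose and 2 fell of 9 in EFAT, with median log2 fold changes of 0.25, -0.05 and -0.20. These shares are near those of all genes. Acot6, a neighbour of the members in the cluster, had 9.47 ± 1.95 CPM in SFAT of CysF-fed Cth-/- mice and 4.99 ± 0.360 CPM in CTRL-fed Cth-/- mice (SD, n = 4 each), a log2 fold change of 0.93 ± 0.16 (edgeR adjusted p = 9.6e-04), and in EFAT it rose by 0.63 ± 0.16 (edgeR adjusted p = 0.01). The other gene that rose in SFAT was Acot5, named after its values were seen, with 0.620 ± 0.170 CPM in the cystine-free group and 0.0267 ± 0.0200 CPM in the control group. In Cth+/+ mice it averaged 0.0390 CPM on the cystine-free diet and 0.0297 CPM on the control diet. Like Acot3, it passed the filter on low counts there only through the CysF-fed Cth-/- mice, so nothing is read from its call. In BAT Acot12, which hydrolyses acetyl-CoA, rose by 0.98 ± 0.27 (edgeR adjusted p = 0.021), a call lost without CTRL replicate 15 (0.81) or CysF replicate 17 (0.96) or 20 (0.89). In EFAT Acot9, a mitochondrial thioesterase, fell at -0.91 ± 0.19 (edgeR adjusted p = 0.0033), and Ppt2 fell at -0.56 ± 0.16 (edgeR adjusted p = 0.017), lost without CTRL replicate 12 (-0.47) or 14 (-0.51) or CysF replicate 20 (-0.52), or when the set defined by Gm43512 was a term (-0.39, edgeR adjusted p = 0.093). Acot7 and Acot8 did not pass in any depot.

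Of 22 other synthetase genes, 4 rose and 2 fell of 15 in BAT, 7 rose of 17 in SFAT, and 2 rose and 3 fell of 17 in EFAT. Slc27a2 changed most in SFAT, with 22.0 ± 11.0 CPM in CysF-fed Cth-/- mice and 2.56 ± 1.70 CPM in CTRL-fed Cth-/- mice (SD, n = 4 each). Its log2 fold change there was 3.11 ± 0.62 (edgeR adjusted p = 0.0023). It rose by 1.28 ± 0.33 in BAT (edgeR adjusted p = 0.014) and did not pass in EFAT, at 0.85 ± 1.13. Slc27a1, a fatty acid transport protein with synthetase activity, had 645 ± 83.0 CPM in SFAT of CysF-fed Cth-/- mice and 221 ± 53.4 CPM in CTRL-fed Cth-/- mice (SD, n = 4 each), a log2 fold change of 1.55 ± 0.16 (edgeR adjusted p = 1.3e-05), and rose by 1.72 ± 0.15 in EFAT (8.5e-06). Acss3, a mitochondrial propionyl-CoA synthetase, rose by 1.48 ± 0.28 in BAT (edgeR adjusted p = 0.0025) and 1.47 ± 0.16 in SFAT (2.4e-05). Acss2, the cytosolic acetyl-CoA synthetase, fell in BAT at -2.18 ± 0.21 (edgeR adjusted p = 1.6e-05). In EFAT it fell at -2.42 ± 0.73 (edgeR adjusted p = 0.023), a call lost without CTRL replicate 12 (-1.67) or 14 (-2.30) or CysF replicate 17 (-2.43), 18 (-2.42) or 20 (-2.35), or when that set was a term (-1.96, edgeR adjusted p = 0.16).

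Among 15 genes of acyl-CoA binding, CoA hydrolysis and acyl transfer, 14 were tested in each depot, of which 3 rose and 2 fell in BAT, 4 rose and 2 fell in SFAT, and 2 rose and 5 fell in EFAT. Dbi, the acyl-CoA binding protein, fell at -0.62 ± 0.12 in BAT (edgeR adjusted p = 0.0024) and -1.44 ± 0.24 in EFAT (8.3e-04), and Crat, carnitine acetyltransferase, rose by 0.92 ± 0.14 in SFAT (3.2e-04) and 0.69 ± 0.15 in EFAT (0.0044). Cpt1b rose more than Crat in SFAT, with log2 fold changes of 1.86 to 2.37 when each replicate was left out. Of 24 PPAR alpha target genes, 7 rose and 1 fell of 21 in BAT, 13 rose and 1 fell of 22 in SFAT, and 5 rose and 1 fell of 21 in EFAT, at median log2 fold changes of 0.24, 0.96 and 0.31. Of all genes, 18.0% passed in BAT, 25.4% in SFAT and 28.8% in EFAT, so the share of this list in EFAT was near that of all genes. Ppara itself rose by 1.63 ± 0.21 in SFAT (edgeR adjusted p = 9.7e-05), with 36.8 ± 5.97 CPM in CysF-fed Cth-/- mice and 12.0 ± 3.43 CPM in CTRL-fed Cth-/- mice (SD, n = 4 each). Vnn1, which releases pantothenate from pantetheine, rose by 1.78 ± 0.40 in BAT (edgeR adjusted p = 0.0073) and 2.75 ± 0.65 in EFAT (0.007). Pdk4 in EFAT rose by 2.28 ± 0.53 (edgeR adjusted p = 0.0065). The diet in Cth+/+ mice changed 0 genes of these 4 lists in each depot by the edgeR test.

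Cell type markers moved in the same comparison of Cth-/- mice: of 6 macrophage markers 5 fell in BAT and 4 in each white depot, and of 6 fibroblast or preadipocyte markers 5 fell in BAT, 5 in SFAT and 3 in EFAT, where 1 rose. Of 5 adipocyte markers, 1 rose and 1 fell in BAT, 1 rose in SFAT and 1 fell in EFAT. The fibroblast markers summed to 945 to 1300 CPM in SFAT of CysF-fed Cth-/- mice, against 1852 to 4715 CPM in CTRL-fed Cth-/- mice, and in EFAT to 1567 to 1827 CPM against 1234 to 1655 CPM. Of 6 skeletal muscle markers 5 fell in BAT, with sums of 3.52 to 146 CPM in CysF-fed Cth-/- mice, against 97.6 to 1032 CPM in CTRL-fed Cth-/- mice, and of 4 B cell markers 4 fell in SFAT, with sums of 0.579 to 1.34 CPM against 1.27 to 52.0 CPM. In SFAT of Cth+/+ mice no adipocyte, fibroblast or macrophage marker passed the edgeR test for the diet, but their sums differed. Adipocyte markers summed to 7611 to 9801 CPM in CysF-fed mice, against 9685 to 11790 CPM in CTRL-fed mice. The fibroblast sums were 2142 to 5858 CPM against 1885 to 2265 CPM, and the macrophage sums 727 to 2237 CPM against 762 to 989 CPM. The part of such shifts in the members' values was not tested in either genotype.

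The genes whose levels ran most like those of the members over the 48 libraries, after subtraction of the depot mean and among 11632 protein-coding genes, were led by Pdk2 for Acsm3 (Pearson r of 0.94), Aldh6a1 for Acsm5 (0.92), Rab3gap1 for Acot4 (0.92), Cmtm4 for Acot1 (0.89), Mrps35 for Acot13 (0.89), Pex3 for Acot2 (0.88) and Cpt1b for Acot11 (0.86). Ucp1 with 0.85 and Cidea with 0.83 came next for Acot11, and Acsm3 with 0.91 was the next gene for Acsm5. Fam13a with 0.94 and Aldh6a1 with 0.93 came next for Acsm3. The points share the 12 groups and the depth of their libraries, and no p is given for these values. Acot3 was too low to be ranked.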

How the data were processed

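The authors deposited a table of expected counts per gene from RSEM for 48 mouse fat libraries, not scaled for depth. Per the submitters' processing notes FastQC, STAR, Picard and RSEM were used with the build mm10. Versions, annotation and any use of strand: not given in the sources used here. RSEM divides reads among genes they fit, which makes counts of close copies estimates. Before testing, expected counts were rounded to integers.

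The test was the quasi-likelihood F-test of edgeR 4.0.16 (with limma 3.58.1 under R 4.3.3), run on the 16 libraries of a depot in 4 groups, and between depots on all 48 libraries in 12 groups, with TMM scaling, filterByExpr (minimum count 10, minimum total 15) and Benjamini-Hochberg adjustment over all genes tested, at a threshold of 0.05. All p-values are two-sided. Printed CPM are expected counts divided by the TMM effective library size over 48 libraries, in units of 1e6. Ratios of Acot3 reads have exact 95% binomial intervals, which cover counting error only. It was tested on simulated data.

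The members, gene lists and markers were chosen with earlier results of these data known. All 8 members are named. Of each list, up to 3 genes past the test that changed most and averaged 1 CPM or more could be named, and the 3 genes most like a member by Pearson r of log2 CPM (prior count 2) were taken among protein-coding genes of at least 1 CPM. Alternatives were DESeq2 1.42.0, robust dispersion, RLE scaling, no filter on low counts, only the 2 groups compared, the library set as a term, Acot1 to Acot6 summed, the replicate number as a block, and leaving out each replicate. Deviations of same-numbered libraries of different depots correlated at -0.11 to 0.49, over 0.1 in 26 of 48 cases. In 26 of 48 cases the own number correlated best among the 4 libraries of the group, where chance gives 1 in 4. The labels do not say whether equal numbers are the same animal, and these values do not settle it. The depot tests treat the libraries as independent, which may not hold. Promoter windows came from a RefSeq table (GRCm38.p6, 7 of 8 members matched), and gene coordinates, exon lengths and transcripts from GENCODE M21. Python 3.11.15 with pandas 2.3.3, scipy 1.17.1, matplotlib 3.10.9 and Biopython 1.88 served for tables, intervals, plots and alignments.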

Additional observations from a re-analysis of the deposited data

Results flagged for a closer look

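Of 87 sets of a member and a group of 4 libraries, 6 held a library that stood far from the other 3, and chance gives about 1 in 20 such sets. Acot3 in SFAT of CysF-fed Cth-/- mice had 5.09 CPM in replicate 20, the library with 31.3% mitochondrially encoded reads. Acot4 had 26.9 CPM in replicate 18 of the same group, 6.17 CPM in replicate 15 of SFAT of CTRL-fed Cth-/- mice and 2.95 CPM in replicate 8 of EFAT of CysF-fed Cth+/+ mice. Acsm5 had 6.12 CPM in replicate 14 of SFAT of CTRL-fed Cth-/- mice, and Acot2 had 84.0 CPM in replicate 1 of BAT of CTRL-fed Cth+/+ mice.

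For 3 genes the cystine-free libraries all lay above the control libraries in Cth-/- mice and all below them in Cth+/+ mice. The fitted difference of the 2 diet responses, Cth-/- minus Cth+/+, was 4.63 (log2) for Acsm3 in SFAT, 1.02 for Acsm3 in BAT, 2.04 for Acsm5 in SFAT and 1.18 for Acot13 in SFAT. The same holds for 0.158% of all genes tested in BAT, where it was 1 of 7 members, and for 0.846% in SFAT, where it was 3 of 8. The members were picked on the response in Cth-/- mice, which is part of this difference, so nothing is read from these counts and the differences are a description with no p given.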

How the results depend on the processing

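Counts of members past the threshold for the diet in Cth-/- mice stood at 1 to 2 in BAT, 7 to 8 in SFAT and 5 to 6 in EFAT when each replicate was left out, and at 1 in BAT with only the 2 groups compared. For the diet in Cth+/+ mice DESeq2 gave 2 in SFAT, against 0 with edgeR. The 3 calls of SFAT over EFAT became 1 without a low-count filter and 0 to 2 with a replicate left out. The cause was not tested. With the library set as a term, Acot13 in EFAT for the genotype on the control diet turned to 0.02 (log2), and summed over Acot1 to Acot6, Acot2 in SFAT over EFAT turned to -0.12. Leaving out a replicate turned signs near 0: for the genotype on the control diet, Acot4 ran from -0.32 to 0.08 and Acot11 from -0.13 to 0.06 in BAT; Acot1 from -0.24 to 0.46, Acot2 from -0.20 to 0.00, Acot4 from -0.07 to 0.37 and Acsm5 from -0.00 to 0.20 in SFAT; Acot1 from -0.00 to 0.83, Acot2 from -0.05 to 0.13, Acot11 from -0.28 to 0.24 and Acsm3 from -0.28 to 0.44 in EFAT. For the diet in Cth+/+ mice in EFAT, Acot1 ran from -0.21 to 0.68, Acot13 from -0.08 to 0.10 and Acsm5 from -0.34 to 0.10, and Acsm5 in SFAT over EFAT ran from -0.06 to 0.35. With the replicate number as a block, a pairing that the labels neither give nor deny, the depot counts were 6, 6 and 3, as without it. Of 48 comparisons between depots, 26 correlated best with their own number among the 4 libraries of the group, where chance gives 1 in 4.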
